A study of Mus musculus with 20 samples.

Results

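Transcript levels of 10 extracellular proteoglycan genes were followed in adipocyte precursor cells of female mice at the start of a high-fat diet. The genes are the class I small leucine-rich proteoglycans Dcn (decorin), Bgn (biglycan) and Aspn (asporin), the class II members Lum (lumican), Fmod (fibromodulin), Prelp (prolargin) and Omd (osteomodulin), the class III member Ogn (osteoglycin), the class V member Podn (podocan), and Vcan (versican), a large hyaluronan-binding proteoglycan. They were picked by name as a gene family and are 10 of the 33899 genes in the deposited count table. All 10 passed the expression filter, as did 14242 genes in all.

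The series is about adipocyte hyperplasia in female obesity. Cells were sorted by flow cytometry from perigonadal fat (VWAT) and inguinal subcutaneous fat (SWAT) of C57Bl6/J females aged 8 to 11 weeks, by gating on cells that lacked CD45 and CD31 and were positive for Sca1, CD29 and CD34, whatever their CD24. VWAT SD and SWAT SD are the 2 depots from mice on standard diet (day 0), and VWAT HFD and SWAT HFD are the same depots after 3 days on a high-fat diet with 60% lard. Each group has 5 libraries, each from cells pooled from 3 mice, so a replicate is a pool and the spread between single mice is not seen. The labels name no transgene or other treatment in any group.

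Small leucine-rich proteoglycans are secreted proteins built around leucine-rich repeats, and most carry chondroitin, dermatan or keratan sulfate chains. Many bind collagen and set the width and spacing of its fibrils, and several bind growth factors such as TGF-beta. Versican forms hydrated complexes with hyaluronan in loose or newly remodelled matrix and is cut by ADAMTS proteases. Fibroblast-like stromal cells, to which fat precursors belong, are a main source of these proteins in connective tissue.

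Several of the genes are neighbours. In the GRCm38 annotation, Dcn and Lum lie side by side on chromosome 10, followed by the related genes Kera and Epyc. Aspn, Omd and Ogn follow each other on chromosome 13 after the related gene Ecm2, and Prelp and Fmod adjoin on chromosome 1. Vcan lies elsewhere on chromosome 13, next to Hapln1, whose protein links versican to hyaluronan. Bgn is on chromosome X and Podn on chromosome 4.

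RefSeq promoter windows (GRCm38.p6, the 250 bases before each annotated start) were found for 8 of the 10 genes, and Dcn and Lum had none. Those of 3 genes that rose on HFD in VWAT and 1 that fell are shown because they differ in base composition and motifs. Capitals mark exact matches, on either strand, to the TATA box TATAAA, to the sequence CCAAT, to the Sp1-type GC box GGGCGG or to the TEAD motif CATTCC. The AP-1 motif TGANTCA was searched as well and was found in no window of the 8 genes. The windows are chr13:49544193-49544442 (plus strand) for Aspn, chr13:49607765-49608014 (plus) for Ogn, chr13:89742513-89742762 (minus) for Vcan and chr1:133921402-133921651 (minus) for Prelp, each printed 5′ to 3′ on the gene's strand.
Aspn: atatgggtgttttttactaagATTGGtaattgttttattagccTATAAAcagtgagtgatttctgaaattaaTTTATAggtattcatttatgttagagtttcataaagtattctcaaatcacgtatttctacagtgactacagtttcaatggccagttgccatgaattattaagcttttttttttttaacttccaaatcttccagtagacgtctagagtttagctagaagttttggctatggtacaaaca
Ogn: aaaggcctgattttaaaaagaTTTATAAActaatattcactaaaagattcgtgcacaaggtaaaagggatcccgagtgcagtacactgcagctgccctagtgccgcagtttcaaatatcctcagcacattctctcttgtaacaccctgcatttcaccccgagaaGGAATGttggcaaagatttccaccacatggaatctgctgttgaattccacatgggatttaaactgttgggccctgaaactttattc
Vcan: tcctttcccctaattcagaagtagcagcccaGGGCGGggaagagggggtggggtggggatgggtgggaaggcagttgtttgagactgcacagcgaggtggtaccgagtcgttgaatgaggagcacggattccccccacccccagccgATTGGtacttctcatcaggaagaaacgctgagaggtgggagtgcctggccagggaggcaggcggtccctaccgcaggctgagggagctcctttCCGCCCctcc
Prelp: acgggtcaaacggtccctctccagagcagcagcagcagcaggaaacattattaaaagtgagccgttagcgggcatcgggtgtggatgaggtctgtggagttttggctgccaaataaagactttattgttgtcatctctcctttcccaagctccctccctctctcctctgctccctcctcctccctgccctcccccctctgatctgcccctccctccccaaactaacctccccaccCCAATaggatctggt

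The Aspn window is 30% G or C and that of Ogn 42%, against 62.4% for Vcan, 55.6% for Prelp and a median of 52.4% over all 32851 windows. The Aspn window holds 2 TATAAA matches and 1 CCAAT match, and that of Ogn 2 overlapping TATAAA matches and 1 CATTCC match. TATAAA occurs in 12.4% of all windows and CATTCC in 12.6%. The Vcan window holds 2 GGGCGG matches and 1 CCAAT match and the Prelp window 1 CCAAT match, motifs found in 32.7% (GGGCGG) and 33.8% (CCAAT) of all windows. The AP-1 motif occurs in 6.75%. No motif was found in all 3 windows of genes that rose, and a match is a description of the letters, not of a bound site. The bases after the RefSeq start of Ogn were not found as an unbroken run in a GENCODE transcript, so its start was not matched there.

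Libraries held 14.4 to 47.5 M reads on genes. The share of reads on no gene was 3.36% to 9.80% in VWAT SD and 3.61% to 4.60% in VWAT HFD. In SWAT it was 3.53% to 9.80% on SD and 3.18% to 4.54% on HFD. The precursor markers Pdgfra, Cd34, Ly6a (Sca1), Itgb1 (CD29) and Thy1 were high in all 20 libraries. Of the other 2 markers of the precursor list, Dlk1 was low (group means 3.53 to 7.56 CPM), and Pdgfrb had means of 302 CPM in VWAT SD and 155 CPM in VWAT HFD, and of 344 CPM in SWAT SD and 254 CPM in SWAT HFD. On SD and HFD, Itgb1 had means of 328 and 706 CPM in VWAT and of 291 and 541 CPM in SWAT. Those of Thy1 were 392 and 397 CPM in VWAT and 600 and 953 CPM in SWAT. Those of Ly6a were 1460 and 1053 CPM in VWAT and 1965 and 2092 CPM in SWAT. The 10 leukocyte markers summed to 7.66 to 76.4 CPM (counts-per-million of reads on genes, after TMM scaling), against 4128 to 7193 CPM for the 7 precursor markers. Markers of tendon or cartilage, tissues rich in these proteoglycans, summed to 25.4 to 37.2 CPM in VWAT SD and 39.8 to 65.5 CPM in VWAT HFD. In SWAT they summed to 28.6 to 47.0 CPM on SD and 26.8 to 51.5 CPM on HFD. Most of this was Sox9, Acan and Col2a1 had at most 6 and 7 reads in any library, and the part of such cells in the results was not tested.

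Sums of epithelial, mural, endothelial, mesothelial and leukocyte markers all reached higher values on SD than on HFD in both depots, with overlapping ranges. The 7 epithelial markers summed to 1.43 to 592 CPM in VWAT SD and 1.96 to 6.18 CPM in VWAT HFD, and to 1.25 to 914 CPM in SWAT SD and 48.6 to 297 CPM in SWAT HFD. The 592 CPM is that of VWAT SD 5 and the 1.25 CPM that of SWAT SD 5, which go against their depot labels (next paragraph). Krt18 stood at 214 CPM in VWAT SD 5, at 0.219 to 0.770 CPM in the other VWAT SD libraries and at 0.495 to 1.82 CPM in VWAT HFD. The 7 mural markers summed to 191 to 622 and 175 to 327 CPM in VWAT on SD and HFD, and to 112 to 322 and 88.8 to 154 CPM in SWAT. The 8 endothelial markers summed to 212 to 432 and 179 to 304 CPM in VWAT on SD and HFD, and to 263 to 424 and 268 to 369 CPM in SWAT. For the 8 mesothelial markers the sums were 104 to 332 and 183 to 237 CPM in VWAT, and 92.5 to 536 and 68.9 to 143 CPM in SWAT. For the 10 leukocyte markers they were 7.66 to 55.5 and 8.93 to 31.6 CPM in VWAT, and 9.68 to 76.4 and 9.95 to 22.8 CPM in SWAT. Most of the mesothelial sum was Krt19 in SWAT (535.6 CPM in SWAT SD 4) and Wt1 in VWAT, the other way round in the SD 5 libraries. Wt1 is also a visceral marker of the next paragraph. Group means of Msln, Upk3b and Lrrn4 were at most 9.13 CPM (Upk3b in VWAT SD), so the sum does not measure mesothelial cells alone. The part of epithelial, mural, endothelial, mesothelial or leukocyte cells in the results was not tested.

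Libraries labelled VWAT SD 5 and SWAT SD 5 go against their depot labels. Developmental markers of visceral fat (6 genes, mainly Wt1 and Tcf21) summed to 22.7 CPM in the library labelled VWAT SD 5, against 168 to 322 CPM in the other VWAT SD libraries. In the library labelled SWAT SD 5 they summed to 200.7 CPM, against 16.8 to 34.9 CPM in the other SWAT SD libraries. The libraries also differ in how levels follow the GC content of transcripts: the rank correlation of a library's deviation with GC content ran from -0.545 to 0.624 in VWAT SD, -0.644 to -0.231 in VWAT HFD, -0.161 to 0.631 in SWAT SD and -0.572 to 0.042 in SWAT HFD, as a description across genes. VWAT SD 1 is the VWAT SD library at -0.545. Results are therefore given for all 20 libraries, for the 18 without the pair that goes against its labels, and for those 18 with a correction that removes each library's trend with GC content. That correction removes any GC-linked difference between the diets, whatever its source.

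Per kilobase of transcript, averaged over the 20 libraries, Dcn was the highest of the 10 genes at 2602 CPM per kb, rank 9 among 14044 tested genes with a known length. Bgn followed at 1010 (rank 46) and Lum at 457 (rank 129), all on the same per-kilobase scale. Ogn (185), Prelp (155), Podn (47.3), Aspn (29.8), Vcan (18.6) and Fmod (12.0) came next, and Omd was lowest at 2.94 CPM per kb, rank 7750. Together the 10 genes took 0.623% to 1.78% of gene reads in VWAT SD (median 0.726%) and 1.15% to 1.72% in VWAT HFD (median 1.42%). In SWAT they took 0.605% to 0.911% (median 0.815%) on SD and 0.842% to 1.26% (median 0.942%) on HFD. The ranges overlap in both depots, in VWAT only through VWAT SD 1.

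**Figure D1:**
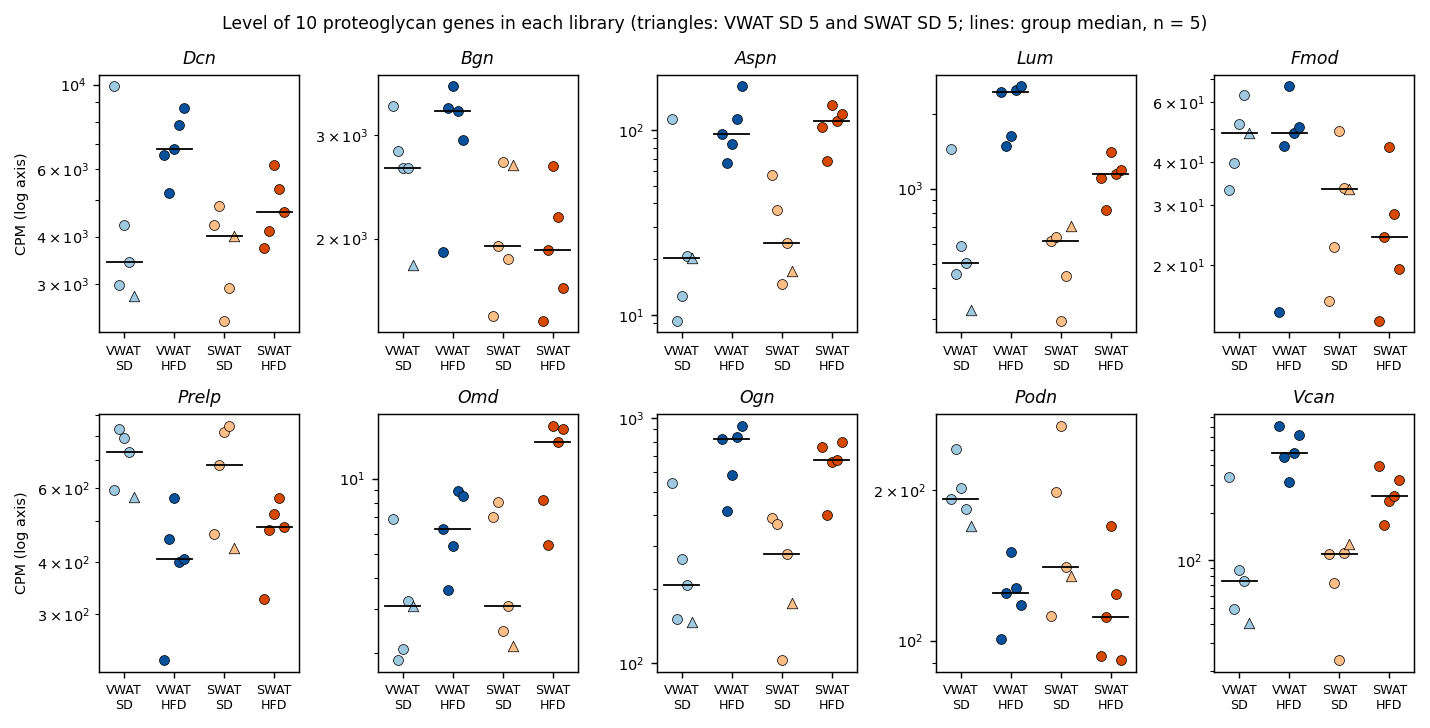
CPM of the 10 genes on log axes, 1 point per library, with the group median as a line and triangles for VWAT SD 5 and SWAT SD 5. Medians of Lum, Ogn, Aspn, Vcan, Dcn and Omd lie higher on HFD in both depots, and those of Prelp and Podn lie lower. That of Bgn is higher on HFD in VWAT only, and that of Fmod is lower in SWAT and almost level in VWAT. VWAT SD 1 stands above the other VWAT SD libraries for Dcn, Aspn, Lum, Omd and Vcan.

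After 3 days of HFD, 6 of the 10 genes differed in VWAT precursors by edgeR's quasi-likelihood test at an adjusted p of 0.05. Lum, Ogn, Aspn and Vcan rose and Prelp and Podn fell, while Dcn, Bgn, Fmod and Omd did not pass. Over all genes tested, 19.7% were called higher and 26.0% lower, so 4 of 10 higher is above that share and 2 of 10 lower is near it. The median log2 fold change of the 10 was 0.74, beside -0.03 for all genes. Aspn, Omd, Ogn, Dcn, Lum and Vcan lie in the 2 lowest deciles of GC content, where the medians of all genes were 0.97 and 0.77. With 18 libraries and GC correction 2 of the 10 were called, both higher, beside 13.8% of all genes called. The median of the 10 was then 0.18, beside -0.003 for all genes. In bulk libraries, a change in the share of cells that make a transcript and a change in RNA per cell cannot be told apart.

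Among class I genes, Dcn, a collagen-binding regulator of fibril growth, ranged from 2790 to 9900 CPM in VWAT SD and from 5199 to 8665 CPM in VWAT HFD. The highest SD value is VWAT SD 1, and the other 4 SD libraries, at 2790 to 4283 CPM, lie below every HFD library. Its log2 fold change was 0.58 ± 0.29 (SE, edgeR adjusted p = 0.106, n = 5 pools per group). Without VWAT SD 1 it was 1.11 (edgeR adjusted p = 0.000355), in a fit that called 59.0% of all genes. With 18 libraries and GC correction it was -0.47 ± 0.16 (edgeR adjusted p = 0.0545), so the direction of Dcn depends on the correction. Bgn, the closest relative of decorin, ranged from 1802 to 3368 CPM on SD and 1897 to 3638 CPM on HFD, with overlapping groups and a log2 fold change of 0.19 ± 0.22 (edgeR adjusted p = 0.494).

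Aspn, a collagen-binding relative of decorin named for its run of aspartate residues, stood at 114, 9.28, 12.6, 20.7 and 20.3 CPM in VWAT SD 1 to 5. In VWAT HFD 1 to 5 it stood at 95.3, 66.1, 83.7, 115 and 172 CPM. VWAT SD 1 falls among the HFD libraries, and the other SD libraries lie below all of them. Aspn rose by 1.58 ± 0.53 on the log2 scale (SE, edgeR adjusted p = 0.0221, n = 5 per group). The call was lost without VWAT SD 2, 3, 4 or 5 or VWAT HFD 5 (edgeR adjusted p up to 0.0709), and the log2 fold change was 2.82 without VWAT SD 1. On 18 libraries with GC correction it was 0.51 ± 0.22 (edgeR adjusted p = 0.122). With the share of reads on no gene as a covariate Aspn did not pass (1.30 ± 0.47, edgeR adjusted p = 0.0604).

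Among class II genes, Lum, which organises collagen fibrils and is best known from the transparent cornea, stood at 1447, 454, 587, 503 and 326 CPM in VWAT SD 1 to 5. In VWAT HFD 1 to 5 it stood at 2460, 1490, 1630, 2506 and 2583 CPM. The lowest HFD library lies just above VWAT SD 1 and far above the other SD libraries, so the groups do not overlap. Lum rose by 1.69 ± 0.33 on the log2 scale (SE, edgeR adjusted p = 0.00311, n = 5 per group), a 3.22-fold higher level. It passed in each fit that left out 1 library (log2 fold change 1.51 to 2.26), with 18 libraries (1.51 ± 0.32, edgeR adjusted p = 0.00522) and with 18 libraries and GC correction (0.70 ± 0.12, edgeR adjusted p = 0.00343).

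Prelp, which binds collagen and heparan sulfate and is thought to anchor basement membranes, stood at 595, 832, 790, 735 and 571 CPM in VWAT SD 1 to 5. In VWAT HFD 1 to 5 it stood at 233, 453, 570, 400 and 406 CPM. Every HFD library lies below every SD library, with VWAT HFD 3 and VWAT SD 5 almost level. Prelp fell by 0.77 ± 0.23 on the log2 scale (SE, edgeR adjusted p = 0.0130, n = 5 per group) and passed in each fit that left out 1 library. With the share of reads on no gene as a covariate Prelp did not pass (-0.51 ± 0.23, edgeR adjusted p = 0.105). After GC correction of 18 libraries the change was -0.33 ± 0.19 (edgeR adjusted p = 0.236). Prelp shares exon sequence with the antisense gene Gm15851, and since the strand setting of the counting is not given in the sources used here, its counts are uncertain to that extent.

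Fmod, a fibril-binding relative of lumican, ranged from 33.2 to 62.9 CPM on SD and 14.7 to 66.7 CPM on HFD in VWAT, with a log2 fold change of -0.07 ± 0.35 (edgeR adjusted p = 0.884) that turned positive with GC correction (0.49 ± 0.34). Omd, a keratan sulfate proteoglycan of bone, ranged from 1.87 to 6.87 CPM on SD and 3.58 to 8.90 CPM on HFD. Its groups overlap through VWAT SD 1, its log2 fold change was 0.90 ± 0.42 (edgeR adjusted p = 0.0824), and without that library it was 1.40 (edgeR adjusted p = 0.00739). In the GC-corrected fit of 18 libraries Omd turned to -0.38 ± 0.24 (edgeR adjusted p = 0.294).

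Ogn, also called mimecan, a regulator of collagen fibril size, stood at 543, 152, 266, 208 and 148 CPM in VWAT SD 1 to 5. In VWAT HFD 1 to 5 it stood at 819, 417, 583, 837 and 930 CPM. VWAT SD 1 exceeds VWAT HFD 2, and the other SD libraries lie below all HFD libraries. Ogn rose by 1.45 ± 0.37 on the log2 scale (SE, edgeR adjusted p = 0.00617, n = 5 per group) and passed in each fit that left out 1 library. With 18 libraries and GC correction the change was 0.04 ± 0.14 (edgeR adjusted p = 0.874).

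Podn, a collagen-binding protein of the matrix, stood at 192, 242, 202, 183 and 169 CPM in VWAT SD 1 to 5. In VWAT HFD 1 to 5 it stood at 101, 125, 150, 127 and 118 CPM. All HFD libraries lie below all SD libraries. Podn fell by 0.67 ± 0.22 on the log2 scale (SE, edgeR adjusted p = 0.0190, n = 5 per group). The call was lost without VWAT SD 2 or VWAT HFD 1 (edgeR adjusted p up to 0.0669), and with 18 libraries and GC correction the change was -0.06 ± 0.23 (edgeR adjusted p = 0.896). With the share of reads on no gene as a covariate Podn did not pass (-0.64 ± 0.25, edgeR adjusted p = 0.0739), whereas Lum, Ogn and Vcan did.

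Vcan stood at 335, 49.1, 87.4, 74.7 and 40.1 CPM in VWAT SD 1 to 5. In VWAT HFD 1 to 5 it stood at 711, 452, 313, 474 and 624 CPM. VWAT SD 1 exceeds only VWAT HFD 3, and the other SD libraries lie at 87.4 CPM or less. Vcan rose by 2.13 ± 0.49 on the log2 scale (SE, edgeR adjusted p = 0.00439, n = 5 per group), the largest change of the 10 genes at 4.38-fold, and by 3.10 without VWAT SD 1. With 18 libraries the log2 fold change was 1.91 ± 0.49 (edgeR adjusted p = 0.00848), and with GC correction too it was 1.45 ± 0.33 (edgeR adjusted p = 0.0127). Lum and Vcan were the 2 genes of the 10 that passed in VWAT in all 3 models. The 18-library fits called 36.5% of all genes in VWAT and, with GC correction, 13.8%.

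**Figure D2:**
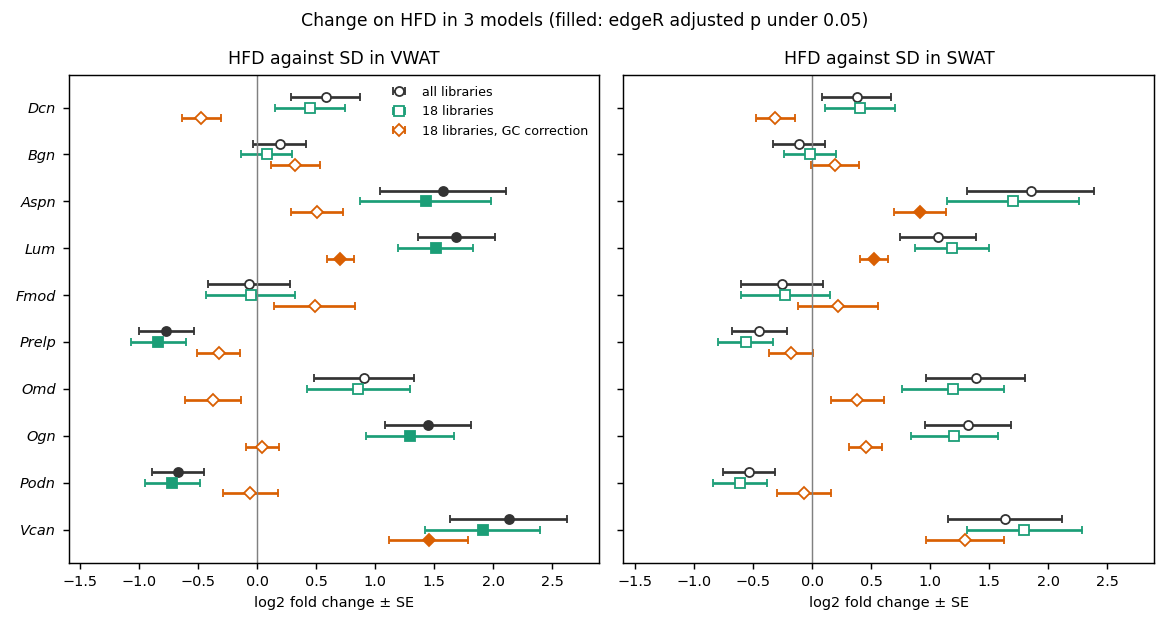
Log2 fold change on HFD with its SE for each gene in VWAT (left) and SWAT (right), with all 20 libraries, with 18, and with 18 and GC correction. Filled symbols passed an edgeR adjusted p of 0.05; Lum and Vcan are filled in all 3 models in VWAT, and Dcn, Omd and Fmod change sign with GC correction there.

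In SWAT none of the 10 genes passed in the 20-library fit, which called 1.56% of all genes, but 6 had an unadjusted edgeR p under 0.05, beside 34.2% of all genes. The smallest adjusted p was that of Ogn, at 0.0579. DESeq2 called 5 (Aspn, Lum, Omd, Ogn and Vcan, all higher, beside 14.2% of all genes) and limma-voom called 3 (Aspn, Ogn and Vcan, beside 2.99%). Single libraries also decided the count: the edgeR test called the same 5 genes as DESeq2 without SWAT SD 1 (15.2% of all genes) or without VWAT SD 1 (23.3%), and Lum, Ogn and Vcan without VWAT SD 5 (3.32%).

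Vcan stood at 111, 72.1, 23.6, 112 and 127 CPM in SWAT SD 1 to 5 and at 395, 167, 238, 256 and 324 CPM in SWAT HFD 1 to 5. All HFD libraries lie above all SD libraries. The log2 fold change was 1.63 ± 0.49 (SE, edgeR adjusted p = 0.0642), and with 18 libraries and GC correction it was 1.30 ± 0.33 (edgeR adjusted p = 0.0531).

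Lum stood at 618, 636, 294, 447 and 705 CPM in SWAT SD 1 to 5 and at 1100, 821, 1405, 1148 and 1194 CPM in SWAT HFD 1 to 5, again without overlap. The log2 fold change was 1.07 ± 0.32 (SE, edgeR adjusted p = 0.0659), and with 18 libraries and GC correction it was 0.52 ± 0.12 (edgeR adjusted p = 0.0324).

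Aspn stood at 57.2, 36.7, 14.7, 24.5 and 17.2 CPM in SWAT SD 1 to 5 and at 104, 67.7, 137, 112 and 122 CPM in SWAT HFD 1 to 5. Here too every HFD library is above every SD library. The log2 fold change was 1.85 ± 0.54 (SE, edgeR adjusted p = 0.0613), and with 18 libraries and GC correction it was 0.92 ± 0.22 (edgeR adjusted p = 0.0421).

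Ogn stood at 390, 370, 103, 280 and 175 CPM in SWAT SD 1 to 5 and at 761, 400, 662, 674 and 797 CPM in SWAT HFD 1 to 5, with SWAT HFD 2 just above SWAT SD 1. The log2 fold change was 1.32 ± 0.37 (SE, edgeR adjusted p = 0.0579), and with 18 libraries and GC correction it was 0.45 ± 0.14 (edgeR adjusted p = 0.0965). Omd, at 2.13 to 8.10 CPM on SD and 5.40 to 16.3 CPM on HFD, overlapped, with a log2 fold change of 1.38 ± 0.42 (edgeR adjusted p = 0.0669).

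Prelp ranged from 432 to 849 CPM in SWAT SD and 326 to 570 CPM in SWAT HFD, and Podn from 112 to 270 and from 91.5 to 170 CPM. Both genes overlap between the diets in SWAT. Their log2 fold changes were -0.45 ± 0.23 for Prelp (edgeR adjusted p = 0.168) and -0.54 ± 0.22 for Podn (edgeR adjusted p = 0.103). Dcn (0.38 ± 0.29), Bgn (-0.11 ± 0.22) and Fmod (-0.26 ± 0.35) also missed the threshold, and Dcn turned to -0.31, Bgn to 0.19 and Fmod to 0.22 with 18 libraries and GC correction. The 18-library fit called 0 of the 10 genes in SWAT (0.641% of all genes; 7 had an unadjusted p under 0.05) and the GC-corrected one called 2, Aspn and Lum (1.51% of all genes).

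The diet effect was compared between depots by the diet by depot interaction. No gene of the 10 or of the whole table passed (0% of all genes), and 0 of the 10 had an unadjusted edgeR p under 0.05, beside 4.25% of all genes. The smallest edgeR adjusted p of the 10 was 0.942, and DESeq2 and limma-voom called 0 as well. With 18 libraries 0 of the 10 had an unadjusted edgeR p under 0.05 (438 of 14360 genes), and 1 with GC correction too (730 of 14360). Without VWAT SD 1 there were 3 (2563 of 14411 genes). Leaving out VWAT SD 1, VWAT SD 5 and SWAT SD 5 also gave 3 (2577 of 14609). None of the 10 passed in these fits. A call in VWAT and none in SWAT is thus not a shown difference between the depots.

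The 6 genes of lowest GC content are those with the highest fold changes in both depots. GC content of the transcripts was 34.3% for Aspn, 35.6% for Omd, 36.3% for Ogn, 40.1% for Dcn and 41.9% for Lum, all in the lowest decile of tested genes, and 44.5% for Vcan, in the next decile. It was 52.1% for Bgn, 54.2% for Prelp, 54.3% for Fmod and 56.4% for Podn. The median log2 fold change in VWAT was 0.97 over the lowest decile, 0.77 over the next, and -0.71 and -0.87 over the deciles that hold Prelp and Fmod (the former) and Podn (the latter). Against its own decile, Vcan stood at percentile 97.6 in VWAT and 97.6 in SWAT, Lum at 93.9 and 83.7, Aspn at 91.6 and 97.0, and Ogn at 88.3 and 92.0. Dcn stood low, at percentiles 18.1 and 19.1, and Prelp near the middle, at 45.4 and 50.9. GC content moves with the diet difference across all genes, and its part in the results was not tested.

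**Figure D3:**
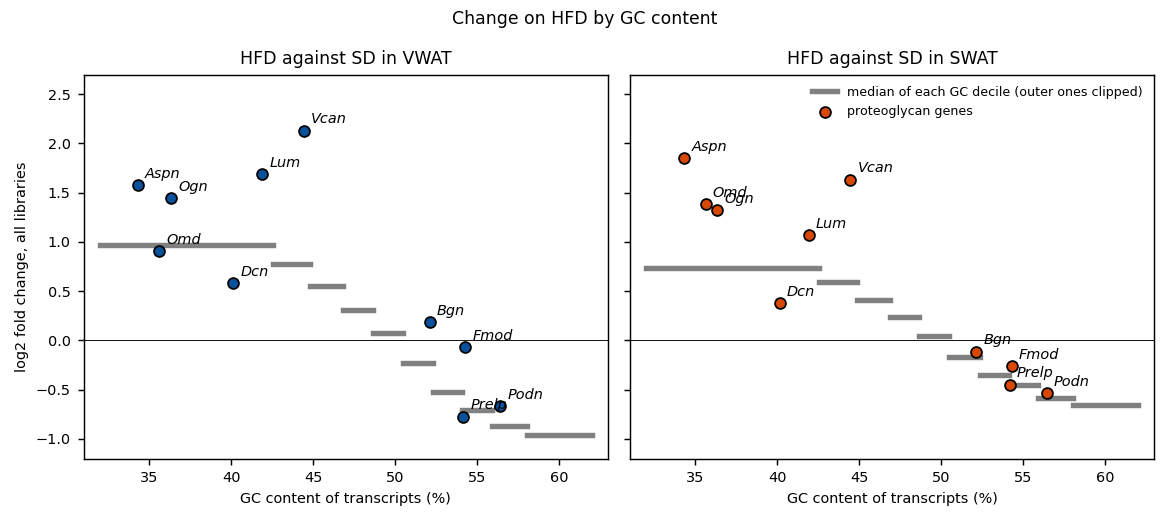
Log2 fold change on HFD (20 libraries) against GC content for the 10 genes (points) in VWAT (left) and SWAT (right), with the median of all tested genes in each decile of GC content as grey bars, the outer deciles clipped to the plotted range. Vcan, Lum, Aspn and Ogn lie above the bar of their decile in both depots and Dcn below it.

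Reads of each gene were also set against those of Dcn in the same library, a ratio that needs no scaling between libraries. This ratio was chosen after the values were seen and is a description. For Lum it was 11.7 to 15.2 reads per 100 Dcn reads in VWAT SD and 24.0 to 37.7 in VWAT HFD, and 12.2 to 17.6 in SWAT SD and 19.8 to 29.4 in SWAT HFD. The diets do not overlap in either depot, and VWAT SD 1, at 14.6, lies within the range of the other VWAT SD libraries.

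For Vcan the ratio was 1.44 to 3.38 reads per 100 Dcn reads in VWAT SD and 4.60 to 10.9 in VWAT HFD, and 0.977 to 3.81 in SWAT SD and 3.87 to 10.6 in SWAT HFD. For Ogn it was 5.07 to 6.21 and 8.03 to 12.6 in VWAT, and 4.28 to 9.54 and 9.65 to 20.4 in SWAT. For Aspn it was 0.293 to 1.16 and 1.23 to 1.99 in VWAT, and 0.429 to 1.33 and 1.63 to 2.79 in SWAT. These 4 of the other 9 genes had every HFD library above every SD library in both depots, which held for 0.393% of all genes (3.15% in VWAT and 1.57% in SWAT) and for 1.99% of genes in the lowest decile of GC content. The other 5 (Bgn, Fmod, Prelp, Omd and Podn) overlapped between diets in both depots. A ratio to Dcn shows unequal change of the gene and of Dcn, and does not say which of them moved.

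**Figure D4:**
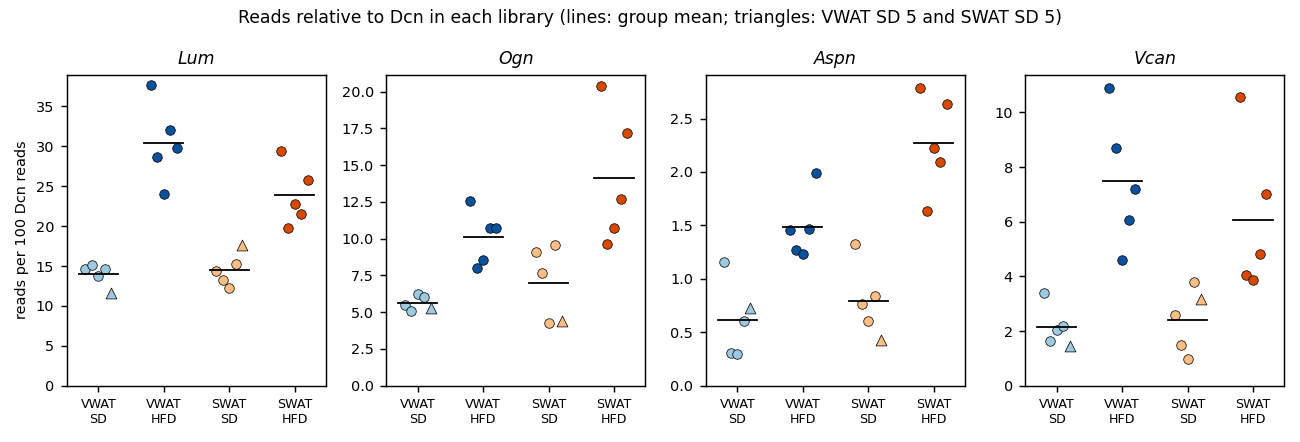
Reads per 100 Dcn reads in each library for Lum, Ogn, Aspn and Vcan, with group means as lines and triangles for VWAT SD 5 and SWAT SD 5. In each panel every HFD library is above every SD library of the same depot.

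Between the depots on SD, 0 of the 10 genes passed (0% of all genes), 0 had an unadjusted edgeR p under 0.05 (7.08% of all genes), and DESeq2 and limma-voom called 0. With 18 libraries 0 passed (8.45% of all genes; 1 had an unadjusted p under 0.05), and with GC correction too, Lum was 0.53 higher in VWAT on the log2 scale (edgeR adjusted p = 0.00467, 13.0% of all genes). On HFD, 0 of the 10 passed (6.45% of all genes) and 4 had an unadjusted edgeR p under 0.05 (20.0%).

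Lum came nearest between the depots on HFD, at 1490 to 2583 CPM in VWAT HFD and 821 to 1405 CPM in SWAT HFD, with no overlap. The log2 difference was 0.91 ± 0.32 (SE, edgeR adjusted p = 0.0924, n = 5 per group). It passed with 18 libraries (0.91 ± 0.29, edgeR adjusted p = 0.0471, 10.8% of all genes), with GC correction as well (0.71 ± 0.11, edgeR adjusted p = 6.81e-05, 16.5% of all genes), without VWAT SD 1 (0.95, edgeR adjusted p = 0.0145) and in DESeq2, which called Lum and Bgn (10.2% of all genes). Bgn differed by 0.62 ± 0.22 (edgeR adjusted p = 0.100), and by 0.69 ± 0.20 with 18 libraries and GC correction (edgeR adjusted p = 0.0169). In that fit Omd was lower in VWAT, by -1.22 ± 0.21 (edgeR adjusted p = 0.000247), where the 20-library fit gave -0.87 ± 0.42 (edgeR adjusted p = 0.245).

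For the collagens that these proteoglycans bind, 5 of 10 tested genes rose in VWAT and 0 fell, beside 19.7% higher and 26.0% lower over all genes, with a median log2 fold change of 0.56 beside -0.03. They were Col3a1 (1.60 ± 0.34, edgeR adjusted p = 0.00348), Col5a2 (1.25 ± 0.23, edgeR adjusted p = 0.00309), Col6a3 (1.02 ± 0.18, edgeR adjusted p = 0.00302), Col12a1 (2.02 ± 0.35, edgeR adjusted p = 0.00302) and Col5a1. In SWAT, where 1.56% of all genes were called, 4 rose and 0 fell: Col3a1 (1.81 ± 0.34, edgeR adjusted p = 0.0334), Col5a2 (1.29 ± 0.23, edgeR adjusted p = 0.0334), Col6a3 (0.76 ± 0.17, edgeR adjusted p = 0.0474) and Col12a1 (1.83 ± 0.35, edgeR adjusted p = 0.0334). On 18 libraries with GC correction, 9 rose in VWAT (13.8% of all genes called) and 7 in SWAT (1.51%). Col3a1 encodes type III collagen of soft tissue, Col5a2 a chain of the type V collagen within fibrils, Col6a3 a chain of microfibrillar type VI collagen, and Col12a1 a collagen on fibril surfaces.

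Among proteases that cut versican and their inhibitor Timp3, 4 of 6 tested genes rose in VWAT (19.7% of all genes) and 0 fell (26.0%), with a median log2 fold change of 0.96. Adamts1 rose by 0.98 ± 0.26 (edgeR adjusted p = 0.00689), Adamts4 by 1.20 ± 0.35 (edgeR adjusted p = 0.0109), Adamts5 by 0.94 ± 0.31 (edgeR adjusted p = 0.0202) and Adamts9 by 1.46 ± 0.38 (edgeR adjusted p = 0.00659). After GC correction of 18 libraries, Adamts1 (0.86), Adamts4 (1.50) and Adamts9 (1.09) passed and Adamts5 (0.21) did not. In SWAT 0 of 6 passed in the 20-library fit or in either 18-library fit.

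Of the partners of versican and hyaluronan, 4 of 11 tested genes rose in VWAT and 2 fell, beside 19.7% and 26.0% of all genes. Tnfaip6, which modifies hyaluronan, rose by 1.08 ± 0.27 (edgeR adjusted p = 0.00587), and Itih5, of the hyaluronan-binding inter-alpha-trypsin inhibitor family, by 1.10 ± 0.25 (edgeR adjusted p = 0.00418). Has2, a hyaluronan synthase, and Fbn1, fibrillin, rose as well, while Fbln1, a fibulin that binds versican, fell by 1.24 ± 0.33 (edgeR adjusted p = 0.00776) and Hyal2, a hyaluronidase, fell by 1.81 ± 0.41 (edgeR adjusted p = 0.00413). In SWAT 1 gene rose, Itih5 (1.15 ± 0.25, edgeR adjusted p = 0.0472), and 1 fell, Fbln1 (-1.58 ± 0.34, edgeR adjusted p = 0.0472). Both also passed in both depots with 18 libraries and GC correction, whereas Tnfaip6 (edgeR adjusted p = 0.993), Has2 (edgeR adjusted p = 0.989) and Hyal2 (-0.83, edgeR adjusted p = 0.0651) did not pass in VWAT there. Hapln1 was too low to be tested.

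Of the enzymes that build the chondroitin and dermatan sulfate chains, 7 of 22 were called higher and 6 lower in VWAT, beside 19.7% and 26.0% of all genes, so the lower count is near the share over all genes. Chsy3, a chondroitin synthase, rose by 1.74 ± 0.42 (edgeR adjusted p = 0.00524), and B3gat3, which completes the linker of the chains to the protein, fell by 1.54 ± 0.30 (edgeR adjusted p = 0.00311). The sulfotransferases Chst7 (-0.98 ± 0.22, edgeR adjusted p = 0.00412) and Chst12 (-1.19 ± 0.28, edgeR adjusted p = 0.00479) fell. In the GC-corrected fit of 18 libraries the count was 5 higher and 1 lower, B3gat3. In SWAT 0 of 22 passed with 20 libraries and 3 rose with 18 libraries and GC correction.

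For keratan sulfate, carried by lumican and fibromodulin, 0 of 6 tested enzymes rose and 1 fell in each depot, the sulfotransferase Chst1, beside 26.0% of all genes lower in VWAT and 1.56% called in SWAT. It fell by 1.75 ± 0.19 in VWAT (edgeR adjusted p = 5.68e-05) and by 0.79 ± 0.18 in SWAT (edgeR adjusted p = 0.0474). With 18 libraries and GC correction it was -1.04 in VWAT (edgeR adjusted p = 0.0042) and -0.27 in SWAT (edgeR adjusted p = 0.433). Chst2, B4galt1 and B4galt4 had log2 fold changes of 0.51, 0.40 and 0.40 in VWAT and did not pass.

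Of 7 other tested small leucine-rich genes, Epyc, the neighbour of Dcn, Lum and Kera, rose in VWAT by 1.96 ± 0.56 (edgeR adjusted p = 0.0102) and Chadl fell by 1.95 ± 0.37 (edgeR adjusted p = 0.00311), beside 19.7% and 26.0% of all genes; both are low genes at under 10 CPM. With 18 libraries and GC correction Epyc was at 0.86 (edgeR adjusted p = 0.222) and did not pass, and Chadl was at -0.76 (edgeR adjusted p = 0.0283). Ecm2 (0.65 ± 0.33) and Tsku (0.15 ± 0.19) did not pass, and 0 of 7 passed in SWAT. Of 13 cell surface proteoglycans 5 rose in VWAT and 0 fell, beside 19.7% and 26.0% of all genes, among them Cd44, the hyaluronan receptor (1.45 ± 0.36, edgeR adjusted p = 0.00558), Sdc4 (0.75 ± 0.15, edgeR adjusted p = 0.00311), Nrp1 (0.93 ± 0.19, edgeR adjusted p = 0.00311) and Sdc2 (0.71 ± 0.27, edgeR adjusted p = 0.0348). Of these named genes Cd44 (0.89) and Sdc4 (0.74) also passed with 18 libraries and GC correction. In SWAT 0 of 13 passed.

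Of 8 other extracellular and basement membrane proteoglycans, Srgn, the intracellular-granule proteoglycan serglycin, rose in VWAT by 1.07 ± 0.30 (edgeR adjusted p = 0.0099) and Spock2 fell by 1.04 ± 0.28 (edgeR adjusted p = 0.0073), 1 of 8 each way beside 19.7% and 26.0% of all genes. Neither passed with 18 libraries and GC correction (Srgn at 0.45, edgeR adjusted p = 0.113; Spock2 at -0.30, edgeR adjusted p = 0.389). Srgn is best known from blood cells; the leukocyte markers summed to 7.66 to 55.5 CPM in VWAT SD and 8.93 to 31.6 CPM in VWAT HFD, and their part in its change was not tested. Hspg2, perlecan, was at 0.20 ± 0.19 and Agrn, agrin, at -0.64 ± 0.29, and neither passed. Hspg2 reached 1.10 with 18 libraries and GC correction (edgeR adjusted p = 0.0052). Of 8 genes for processing and receptors, Tlr4, a receptor reported for biglycan, rose by 1.26 ± 0.36 in VWAT (edgeR adjusted p = 0.0101) and Egfr, a receptor reported for decorin, by 0.78 ± 0.18 (edgeR adjusted p = 0.0046). Bmp1, the protease that matures several of these proteins, fell by 0.53 ± 0.20 (edgeR adjusted p = 0.0396), and Lrp1 did not pass (-0.27 ± 0.17). Thus 2 of 8 rose and 1 fell, beside 19.7% higher and 26.0% lower over all genes. Egfr rose in SWAT as well (0.77 ± 0.18, edgeR adjusted p = 0.0477), and with 18 libraries and GC correction Tlr4, Egfr and Bmp1 did not pass in VWAT.

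The genes whose log2 CPM profile over the 20 libraries came nearest to each of the 10 were searched among 10114 genes, by the root mean square difference of profiles centred on their means. Ogn had the closest match, Psme4 at 0.14, then Gria3 at 0.19. Prelp was nearest to Wbp2 (0.17) and Tmem110 (0.18), Dcn to Ccni (0.19) and Gkap1 (0.20), and Podn to Map1lc3b (0.21) and Tmem159 (0.22). Bgn was nearest to Fmo1 (0.22) and Fbln5 (0.23), Lum to Fam198b (0.24) and Tlr4 (0.24), and Omd to Pdgfd and Herc6 (0.35 each). Looser matches were Smarca1 (0.40) and Dsel (0.45) for Aspn, Slc44a3 (0.39) and Sort1 (0.42) for Fmod, and Acsl4 (0.44) and Itgav (0.48) for Vcan. None of the 10 was the nearest gene of another, though Bgn ranked 7 for Fmod, Lum ranked 19 for Vcan and Ogn ranked 30 for Aspn. Profiles share libraries, depth and base composition, so likeness here is a description.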

How the data were processed

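Counts in 20 libraries of polyadenylated RNA, read as 75 bp single reads, were analysed. The authors deposited whole-number read counts per gene, without normalization. TopHat alignment to mm9 and HTSeq counting are named, with no versions, per the submitters' processing notes. For annotation and strand setting: not given in the sources used here. The table has 33929 rows, of which 5 HTSeq summary rows (27.0% of reads on average) and 25 rows with dates for symbols were left out.

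The deposited counts went into edgeR 4.0.16 (R 4.3.3): its expression filter, TMM scaling, 1 mean per group over all 20 libraries, and a robust quasi-likelihood test with Benjamini-Hochberg adjustment over all 14242 genes (threshold 0.05). The SE is taken from the log2 fold change and the F statistic. The code of the 20-library fit was tested on simulated counts that held no GC trend and no library going against its depot label. The GC correction takes a lowess curve (span 0.3) of each library's deviation from the gene mean as an offset; 98.6% of tested genes have a GC value from the GRCm38 annotation, used for names, length and GC content only. DESeq2 1.42.0 and limma 3.58.1 (voom) were alternatives, with other scalings, filters, covariates and left-out libraries. Replicates of a group differed by more than sampling noise (chi-square over degrees of freedom 19.2 to 420 over 40 pairs). At the lowest depth 1 CPM is about 14.4 reads.

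The 10 genes, the gene lists and the tests were chosen with earlier results of these data known. From each list up to 4 genes are named, those with the smallest p in VWAT and a mean of at least 1 CPM, with the other called genes of small groups added after their values were seen. The nearest genes are the 2 closest with a mean log2 CPM of at least 1, without predicted genes.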

Additional observations from a re-analysis of the deposited data

Results flagged for a closer look

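Of 40 sets of 5 libraries (10 genes in 4 groups), 5 held a library far from the rest by Dixon's test. The test's nominal rate of about 1 in 20 holds for independent sets, and these sets share libraries. No share over all genes is given, so the 5 are not separate results about these genes. All 5 are VWAT SD 1, which stood above the other VWAT SD libraries. Dcn was at 9900 CPM there and the next library at 4283 CPM. Aspn was at 114 CPM, next 20.7 CPM, and Lum at 1447 CPM, next 587 CPM. Omd was at 6.87 CPM, next 3.22 CPM, and Vcan at 335 CPM, next 87.4 CPM. All 5 genes are in the 2 lowest deciles of GC content. VWAT SD 1 has the lowest correlation of levels with GC content across all genes in its group (-0.545, against 0.508 to 0.624 in the other VWAT SD libraries). Their part in the result was not tested.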

How the results depend on the processing

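Of 330 values of single genes under alternatives other than leaving out 1 library, 252 kept direction and side of the threshold, 46 newly passed, 13 no longer passed and 19 changed sign. With 6 genes called in VWAT, the count (with the share of all genes called) was 2 with GC correction (16.8%), 2 with 18 libraries and GC correction (13.8%), 3 with the share of reads on no gene as a covariate (13.2%), 5 without a filter (23.7%), 5 with the compared groups only (38.6%), 7 in limma-voom (41.3%; Dcn also passed), 8 with 17 libraries (57.5%; without VWAT SD 1, VWAT SD 5 and SWAT SD 5, chosen after seeing the data; Dcn and Omd also passed), and 4 to 8 when 1 library was left out. With 0 called in SWAT, it was 5 in DESeq2 (14.2%), 3 in limma-voom (2.99%), 1 with GC correction (0.737%), 2 with 18 libraries and GC correction (1.51%), 5 with the compared groups only (14.2%), 5 with 17 libraries (22.7%) and 0 to 5 with 1 library left out. Between depots on SD the 0 became 1 with 18 libraries and GC correction (13.0%) and 1 with 17 libraries (12.5%), and was 0 with each library left out; on HFD it became 2 in DESeq2 (10.2%), 1 with 18 libraries (10.8%), 3 with GC correction (10.4%), 3 with 18 libraries and GC correction (16.5%), 4 with the compared groups only (20.3%), 2 with 17 libraries (14.1%) and 0 to 1 with 1 library left out. The interaction called 0 in every alternative run. With the replicate block the counts were 6 in VWAT (48.2%), 6 in SWAT (14.7%; Aspn, Lum, Omd, Ogn and Vcan higher and Podn lower), 0 for the interaction, 0 between depots on SD and 1 on HFD (6.36%; Fmod). No label says whether equal numbers pair the samples, and the correlations do not settle it. Of 20 same-number pairs, which also set SD against HFD libraries, 10 had deviations correlated over 0.1 (range -0.658 to 0.579). Between depots the correlations were 0.083 to 0.522 on HFD and -0.658 to 0.579 on SD. The lowest is that of the SD 5 libraries, which go against their depot labels. Signs changed in VWAT for Dcn (-0.41), Fmod (0.47) and Omd (-0.50) with GC correction, for Dcn (-0.47), Fmod (0.49) and Omd (-0.38) with 18 libraries too, and for Fmod (0.028) with the covariate. In SWAT they changed for Dcn (-0.40), Bgn (0.10) and Fmod (0.16) with GC correction, for Dcn (-0.31), Bgn (0.19) and Fmod (0.22) with 18 libraries too, and for Bgn (0.016) with 17 libraries. Between depots on HFD they changed for Aspn without a filter (0.0084), with the covariate (0.094) and with 17 libraries (0.014), and for Ogn with GC correction (-0.24) and with 18 libraries too (-0.24). Leaving out 1 library turned the sign for Fmod in VWAT (-0.20 to 0.19), Bgn in SWAT (-0.22 to 0.0018), and Aspn (-0.24 to 0.14) and Ogn (-0.013 to 0.30) between depots on HFD. Between depots on SD, leaving out VWAT SD 1 turned Dcn (to -0.13), Lum (-0.22), Aspn (-0.93) and Vcan (-0.51), and other libraries turned Ogn; in the interaction Aspn, Fmod, Ogn and Podn turned. The cause was not tested. Depth limits Omd most, at 1.87 CPM in its lowest library.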
